A study of Mus musculus with 20 samples.

Results

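TGF-beta signalling genes were followed through the cells of the mouse spinal cord before and after contusion, with microglia present or depleted. They were the ligand genes Tgfb1, Tgfb2 and Tgfb3, the receptor genes Tgfbr1 and Tgfbr2, the Smad genes Smad2, Smad3 and Smad7, and Tgfbi, a secreted matrix protein named for its induction by TGF-beta. These 9 of the 16003 genes in the deposited single-cell count table were chosen by symbol, and each was read in all 14 cell clusters and all 6 libraries.

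TGF-beta ligands are secreted in a latent form that stays bound to matrix or to the cell surface until integrins, thrombospondin or proteases release it. The free ligand brings the type II receptor (Tgfbr2) and the type I receptor (Tgfbr1) together, and the type I receptor phosphorylates Smad2 and Smad3, which enter the nucleus with Smad4. Smad7 is itself switched on by the pathway and blocks it at the receptor. In the central nervous system TGF-beta is known for holding microglia in their resting identity, for scar matrix and for keeping vessels stable.

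C57BL/6J female mice, 8 to 10 weeks old, were fed Vehicle chow or chow with 1200 ppm PLX5622, a CSF1R inhibitor that depletes microglia, for 2 weeks before surgery and on until tissue was taken. Surgery was a laminectomy at T9 (sham) or a T9 contusion spinal cord injury (SCI), and fresh unperfused cord, 1 cm long and centred on T9, was dissociated at 7 or 28 days post injury (dpi) and cleared of myelin and dead cells. All 6 conditions (sham, 7 dpi and 28 dpi on each diet) share strain, sex, surgery at T9 and a diet switch, and each was 1 library pooled from 3 to 4 mice. No test between conditions was therefore possible. Both sham libraries carry both times, 7 and 28 days, in their label, so 1 sham library per diet is the reference for the 2 injury times. Counts are unique molecular identifiers (UMIs) from 3′ droplet libraries, summed over the cells of a cluster in a library and given relative to all UMIs of that cluster and library, scaled to the total that CPM uses (counts per 1000000).

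The 6 libraries held 492 to 9846 cells and 2606149 to 35694246 UMIs, with medians of 2268.5 to 5127 UMIs per cell. Between 0.355% and 1.02% of the cells of a library carried a barcode string that another library also had. Clusters were the deposited ones and were named for the cells they resemble by markers, of which 70 of 82 detected were highest in the cluster of that name. For monocytes this held for only 3 of 6 markers (Ly6c2 and Chil3 were highest in neutrophils, Napsa in B cells), and that cluster is called by its genes Ccr2 and Retnla, as are the Dcn/Col3a1 and Mgp/Slc47a1 clusters. MDMs are the macrophages of the Gpnmb and Spp1 cluster, read as monocyte-derived. PLX5622 left 29, 61 and 126 microglia in the sham, 7 dpi and 28 dpi libraries against 674, 2154 and 3974 on vehicle, so PLX5622 values in microglia rest on few cells. Values from fewer than 20 cells are left out, and the intervals quoted cover counting error only, not the difference between mice.

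Among the ligands, Tgfb1 came mainly from immune cells. Its median level over libraries was highest in microglia (107 CPM, range 79.7 to 240.1), followed by MDMs (101 CPM, 74.7 to 165), the Ccr2/Retnla cluster (86.3 CPM) and B cells (83.3 CPM). The ranges of these neighbours overlapped, so no order holds among them. With a minimum of 50 cells per library the medians were 83.2 CPM in microglia and 101 CPM in MDMs. In microglia, Tgfb1 stood at 79.7, 81.3 and 83.2 CPM in the vehicle sham, 7 dpi and 28 dpi libraries and at 240.1, 136 and 130.3 CPM in the PLX5622 ones. All PLX5622 libraries lay above all vehicle libraries. In MDMs it was 74.7, 87.3 and 101 CPM on vehicle and 165 and 132 CPM at 7 and 28 dpi on PLX5622, again without overlap. In microglia of the vehicle sham library Tgfb1 reached 167 UMIs, 45.9% of the library's Tgfb1 UMIs (Clopper-Pearson 95% interval 40.7 to 51.2), from cells that gave 29.2% of all UMIs.

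Tgfb2 belonged to endothelial, glial and stromal cells. Endothelial cells held 162, 63.5 and 51.8 CPM in vehicle sham, 7 dpi and 28 dpi and 124, 81.4 and 77.4 CPM on PLX5622, so both sham libraries were above all 4 injured ones. Astrocytes held 48.7, 38.1 and 26.6 CPM on vehicle and 49.5, 76.2 and 119 CPM on PLX5622, the last from 18 UMIs. The vehicle values did not fall in astrocytes with fewer than 3 UMIs of the list of 12 myeloid genes described below. They were 48.1, 117 and 53.8 CPM there, from 35, 4 and 7 UMIs. The oligodendrocyte lineage cluster, whose leading genes include Olig1, Pdgfra and Vcan, had a median of 76.9 CPM against 79.4 CPM in endothelial cells, with overlapping ranges. With a minimum of 50 cells per library its median was 24.8 CPM, below endothelial cells (79.4 CPM) and astrocytes (48.7 CPM). In microglia and MDMs the gene stayed at or below 1.88 CPM in every library. Neutrophils had up to 8.27 CPM, from 3 UMIs. The Ccr2/Retnla cluster had 1, 26 and 45 UMIs (2.19, 11.9 and 70.6 CPM) in vehicle sham, 7 dpi and 28 dpi and no UMI on PLX5622 at either injury time.

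Tgfb3 was the rarest ligand and sat in stromal cells. The Mgp/Slc47a1 cluster had 121 CPM in the vehicle sham library and 72.9 CPM at 28 dpi, the libraries with at least 20 of its cells. The Dcn/Col3a1 cluster, which carries fibroblast and pericyte genes, had 30.3, 72.0 and 21.3 CPM in vehicle sham, 7 dpi and 28 dpi. The Mgp/Slc47a1 cluster, 27 cells, gave 41 of the 52 Tgfb3 UMIs of the vehicle sham library, which is 78.8%. Microglia held 0 or 1 Tgfb3 UMI in every library.

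**Figure D1:**
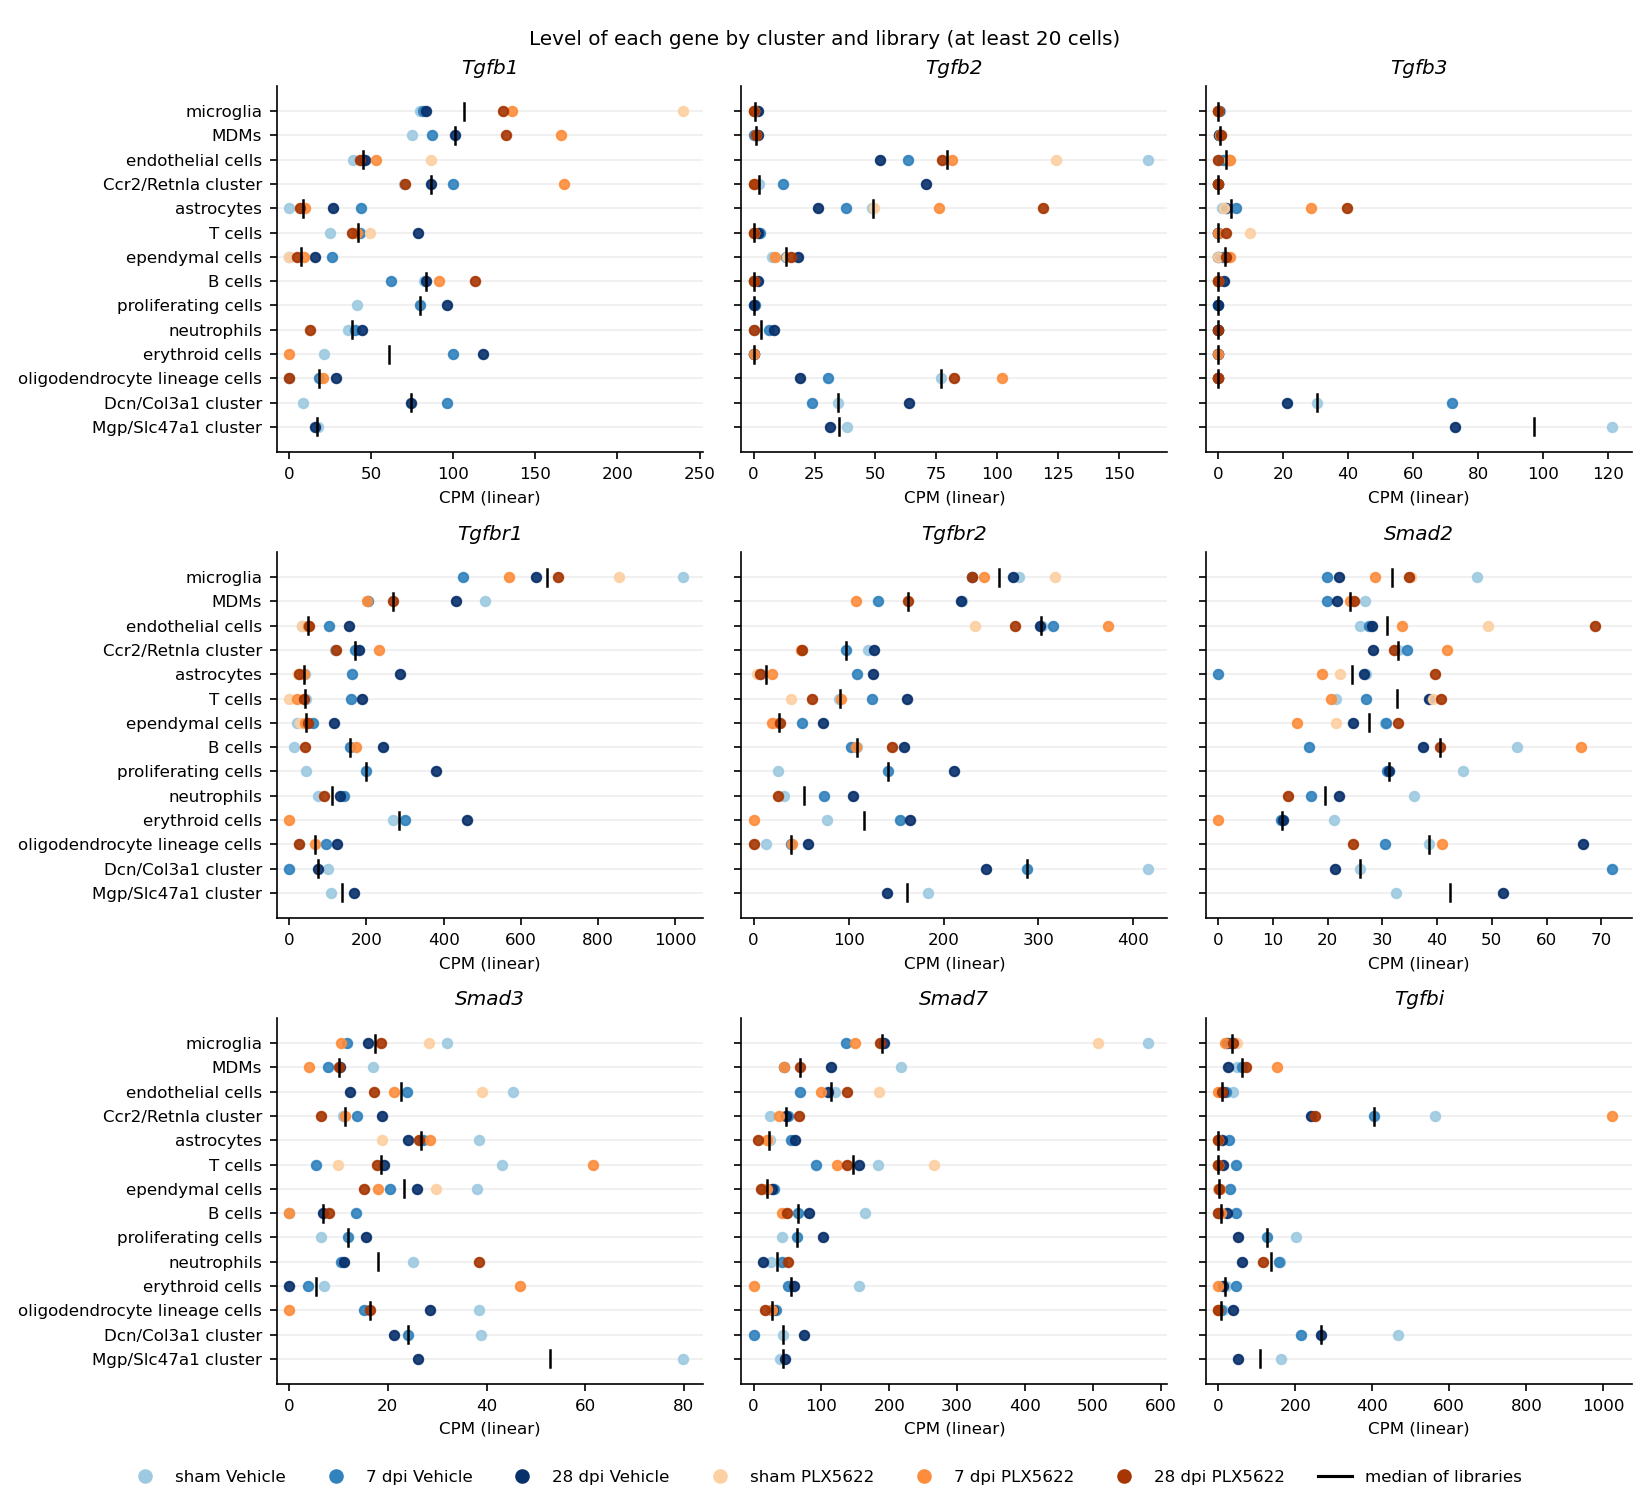
Level of each of the 9 genes in each cluster. Each point is 1 library with at least 20 cells of the cluster, in CPM on a linear axis, in blue shades for vehicle and orange shades for PLX5622, and the black bar is the median of the libraries. By that median, Tgfb1 is high in microglia and MDMs (107 and 101 CPM, in no firm order) and Tgfbr1 is highest in microglia. Tgfb2 is highest in endothelial cells, Tgfb3 in the Mgp/Slc47a1 cluster and Tgfbi in the Ccr2/Retnla and Dcn/Col3a1 clusters. The Tgfb2 median of oligodendrocyte lineage cells is 76.9 CPM, but 24.8 CPM over libraries with at least 50 of these cells.

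By median, Tgfbr1 was highest in microglia, while Tgfbr2 was similarly high in endothelial cells, the Dcn/Col3a1 cluster and microglia. Tgfbr1, the kinase subunit, stood in microglia at 1020.0, 449.7 and 639 CPM in vehicle sham, 7 dpi and 28 dpi and at 854, 569 and 696 CPM on PLX5622. On both diets the sham library was the highest and the 7 dpi library the lowest. MDMs held 507, 205 and 432 CPM on vehicle and 202 and 269 CPM at 7 and 28 dpi on PLX5622, below the microglia of the same library in all 5. The erythroid cluster had a median of 284 CPM, with its myeloid RNA described below. Microglia held 68.8% of the Tgfbr1 UMIs of the vehicle sham library from 29.2% of its UMIs, and 46.4% of those of the PLX5622 sham library from 5.40% of its UMIs. Over all cells together, Tgfbr1 was 433 CPM in the vehicle sham library and 100.1 CPM in the PLX5622 sham library. In such a sum, fewer cells of a type and less RNA per cell cannot be told apart.

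Tgfbr2, the ligand-binding subunit, was as high in endothelial cells (304, 315 and 302 CPM on vehicle; 233, 373 and 275 CPM on PLX5622) as in the Dcn/Col3a1 cluster, with 415, 288 and 244 CPM on vehicle. Microglia followed with 279, 229.6 and 273 CPM on vehicle and 318, 243 and 230.3 CPM on PLX5622. The ranges of these 3 clusters overlapped. MDMs lay below microglia, at 220.0, 130.5 and 219 CPM on vehicle and 108 and 162 CPM on PLX5622, and their range did not reach that of microglia. Of the coreceptors and related type I receptors, Eng and Acvrl1, which pass TGF-beta family signals in endothelium, stood at 634 and 505 CPM in endothelial cells of the vehicle sham library.

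Among the Smads, Smad2 was nearly level across clusters, with medians from 24.0 CPM in MDMs to 42.3 CPM in the Mgp/Slc47a1 cluster, apart from neutrophils (19.5 CPM) and the erythroid cluster (11.7 CPM). Smad3 was highest in the Mgp/Slc47a1 cluster (79.8 CPM in vehicle sham, 26.0 CPM at 28 dpi) and low in MDMs after injury, down to 4.01 CPM (7 UMIs) at 7 dpi on PLX5622. Smad7, the inhibitory Smad, had its highest median in microglia (190 CPM), ahead of T cells (146 CPM) and endothelial cells (114 CPM). Its microglial values were spread widely, at 581, 136 and 193 CPM on vehicle and 508, 149 and 186 CPM on PLX5622. Both sham libraries stood apart, more than 2-fold above the 4 injured ones. Microglia gave 70.4% of the Smad7 UMIs of the vehicle sham library.

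Tgfbi marked the Ccr2/Retnla and Dcn/Col3a1 clusters. The former held 562, 405 and 242 CPM on vehicle and 1023 and 250.3 CPM at 7 and 28 dpi on PLX5622. The latter held 467, 216 and 266 CPM on vehicle. Microglia (18.3 to 49.4 CPM) and MDMs (26.7 to 153 CPM) were lower than the Ccr2/Retnla cluster in each library compared.

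As a description, the genes whose level followed each member most closely over the 66 combinations of cluster and library with at least 20 cells were sought by the Pearson correlation of log2(CPM + 10). These points share libraries and cells, so no p is given. Tgfbr1 ran with P2ry6 (0.89) and Csf1r (0.88), the receptor that PLX5622 blocks, and Tgfb1 with Inpp5d (0.87) and Gngt2 (0.86). Tgfbr2 ran with Cd34 (0.82), Smad7 with Rnaset2b (0.80) and Golm1 (0.76), and Tgfbi with Arrdc4 (0.77) and Emilin2 (0.74). Tgfb2 ran with Fermt2 (0.91) and Ptk2 (0.90), genes of focal adhesions, and Tgfb3 with Col12a1 (0.93) and Scara3 (0.93). Smad2 and Smad3 had no close companion, with best values of 0.66 (Srsf7) and 0.60 (Ciao1).

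The promoters of 4 of the genes are printed because pairs of them moved together below: Tgfbr1 and Smad3 were lower in injured microglia, and Tgfb1 and Tgfbi were higher in MDMs of PLX5622-fed mice. Each run covers 250 bases before to 50 bases after the transcription start, on the strand of the gene, from RefSeq GRCm38.p6. Capitals mark matches, on either strand, to CAGAC (the Smad box), GGGCGG (the Sp1 box), TGACTCA (AP-1) and GAGGAAGT (PU.1).
Tgfbr1, chr4:47352972-47353271, plus strand: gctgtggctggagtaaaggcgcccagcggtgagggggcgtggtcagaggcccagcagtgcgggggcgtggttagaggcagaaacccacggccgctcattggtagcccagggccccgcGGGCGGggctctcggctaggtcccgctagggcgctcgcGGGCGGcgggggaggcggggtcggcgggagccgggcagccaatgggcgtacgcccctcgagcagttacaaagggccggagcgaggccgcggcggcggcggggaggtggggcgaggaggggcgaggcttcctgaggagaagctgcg
Smad3, chr9:63757945-63758244, minus strand: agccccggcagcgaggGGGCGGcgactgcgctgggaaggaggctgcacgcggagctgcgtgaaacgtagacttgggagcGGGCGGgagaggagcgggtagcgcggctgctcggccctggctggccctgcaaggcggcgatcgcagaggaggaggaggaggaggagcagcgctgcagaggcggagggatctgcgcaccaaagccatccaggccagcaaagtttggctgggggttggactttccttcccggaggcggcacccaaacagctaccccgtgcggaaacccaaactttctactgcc
Tgfb1, chr7:25686752-25687051, plus strand: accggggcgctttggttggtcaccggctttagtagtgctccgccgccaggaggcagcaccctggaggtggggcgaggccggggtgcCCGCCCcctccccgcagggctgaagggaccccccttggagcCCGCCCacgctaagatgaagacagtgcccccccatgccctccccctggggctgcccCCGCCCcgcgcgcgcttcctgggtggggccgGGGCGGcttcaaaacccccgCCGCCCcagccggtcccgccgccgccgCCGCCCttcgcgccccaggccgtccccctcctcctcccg
Tgfbi, chr13:56609336-56609635, plus strand: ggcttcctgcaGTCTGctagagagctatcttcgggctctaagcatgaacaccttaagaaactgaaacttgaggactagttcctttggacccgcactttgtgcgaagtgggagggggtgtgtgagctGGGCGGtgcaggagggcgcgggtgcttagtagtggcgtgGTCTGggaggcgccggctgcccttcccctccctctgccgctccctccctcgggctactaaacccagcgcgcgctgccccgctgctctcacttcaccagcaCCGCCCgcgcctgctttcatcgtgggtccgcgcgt

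The 4 promoters were rich in G and C: 77.0% of bases for Tgfb1, 74.7% for Tgfbr1, 67.7% for Smad3 and 63.3% for Tgfbi, against a median of 52.7% over 32851 promoters of the same length. GGGCGG was matched 6 times for Tgfb1 and 2 times each for Tgfbr1, Smad3 and Tgfbi, and is present in 35.7% of all promoters. CAGAC was matched 2 times for Tgfbi and not for the other 3 shown, and is present in 49.6% of all promoters. Of the other members with a promoter in the table, Tgfb2 held 2 matches to CAGAC and Tgfbr2 held 1. TGACTCA and GAGGAAGT, present in 5.20% and 3.2% of all promoters, were matched in none of the 6 members. Tgfbr1 has 2 annotated starts, of which the upstream start is shown. The genes lie on 7 chromosomes (RefSeq, GRCm38.p6). Tgfb1 is at chr7:25687002-25705077, Tgfb2 at chr1:186622787-186709697, Tgfb3 at chr12:86056743-86079041, Tgfbr1 at chr4:47353222-47414926, Tgfbr2 at chr9:116087695-116175363, Smad2 at chr18:76241090-76311748, Smad3 at chr9:63646766-63757994, Smad7 at chr18:75367365-75395935 and Tgfbi at chr13:56609586-56639359.

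Much of the receptor-to-Smad chain was lower in microglia of the injured vehicle libraries than in sham. At 7 dpi against sham, Smad7 differed most, going from 581 to 136 CPM, a log2 ratio of -2.10 (95% interval -2.22 to -1.97). Smad3 went from 32.0 to 11.7 CPM (-1.45, -1.94 to -0.96), Smad2 from 47.2 to 19.8 CPM (-1.25, -1.64 to -0.86) and Tgfbr1 from 1020.0 to 449.7 CPM (-1.18, -1.26 to -1.10). Tgfbr2 and the ligand differed less: -0.28 (-0.42 to -0.14) for Tgfbr2 and 0.03 (-0.22 to 0.29) for Tgfb1, which kept 79.7 and 81.3 CPM. Of the 7 members whose UMIs in the pair of libraries summed to 50 or more, 4 were at least 2-fold lower, against 24.0% of the 8332 genes counted that way, and 0 members were at least 2-fold higher, against 4.16%. Tgfb2 and Tgfb3, with 7 and 1 UMIs, were too rare to compare.

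The scale matters for these values, because the median of all genes in that comparison was itself -0.57. With edgeR's TMM factors, which set that median near 0, Smad7 stayed 2-fold lower at -1.53. Smad3, Smad2 and Tgfbr1 were then at -0.88, -0.68 and -0.61, under 2-fold, and Tgfb1 was at 0.60. Tgfbr2 (0.29) and Tgfbi (0.18) changed sign under TMM. DESeq2's size factors gave -1.52 for Smad7.

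At 28 dpi part of the difference remained. Smad7 was at -1.59 (-1.70 to -1.48), Smad2 at -1.10 (-1.46 to -0.73), Smad3, from 32.0 to 16.0 CPM, just short of 2-fold (interval -1.43 to -0.55) and Tgfbr1 at -0.68 (-0.75 to -0.60) against sham. The median of all genes was -0.46, and on the TMM scale these values were -1.13 for Smad7, -0.64 for Smad2, -0.54 for Smad3 and -0.22 for Tgfbr1. Counted by CPM, 2 of 7 members were at least 2-fold lower (14.4% of all genes) and 0 were at least 2-fold higher (3.84%). Tgfb1 again differed little by CPM (0.06, -0.18 to 0.32).

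In the few microglia of PLX5622-fed mice, Smad7 showed the same direction. It was 508 CPM (72 UMIs) in sham, 149 CPM (57 UMIs) at 7 dpi and 186 CPM (80 UMIs) at 28 dpi, log2 ratios of -1.77 (-2.30 to -1.25) and -1.45 (-1.93 to -0.97). Tgfbr1 was at -0.59 (-0.91 to -0.25) and -0.30 (-0.61 to 0.02). Tgfb1, in contrast to vehicle, was at -0.82 (-1.47 to -0.16) and -0.88 (-1.52 to -0.22), from 34 UMIs in 29 sham cells.

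**Figure D2:**
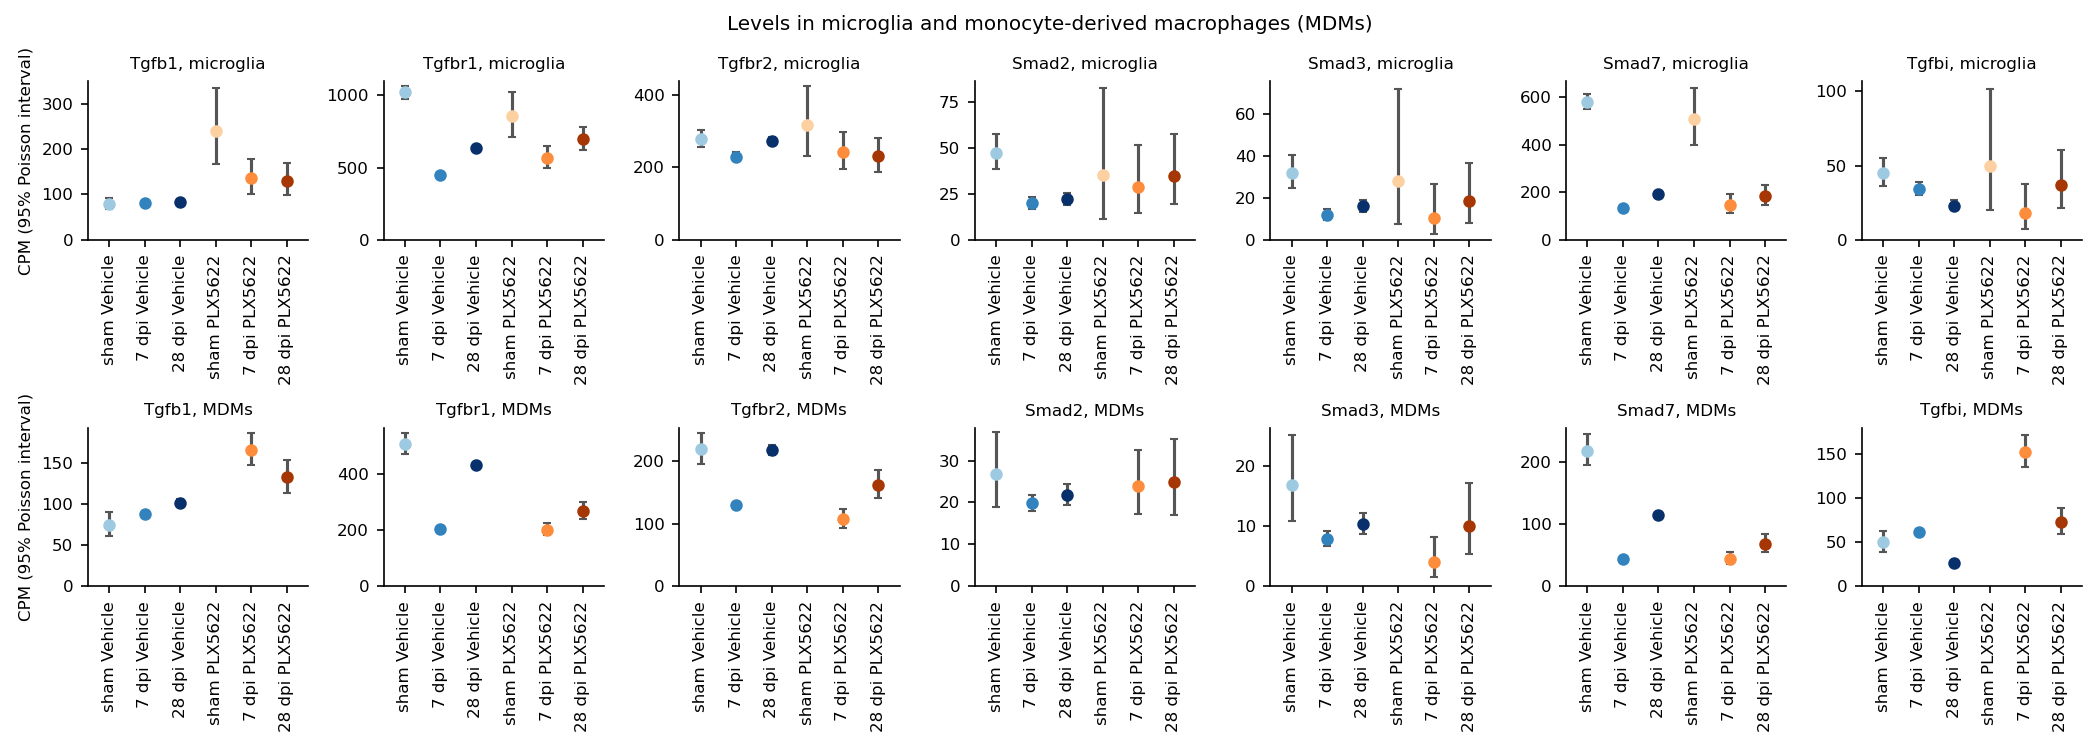
Levels of the members in microglia and MDMs of each library, in CPM with exact Poisson 95% intervals, blue for vehicle and orange for PLX5622. Smad7 and Tgfbr1 of microglia are highest in the sham libraries (581 and 1020.0 CPM on vehicle) and Tgfb1 is higher on PLX5622 than on vehicle in every condition with at least 20 cells.

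Per-cell detection gave the same picture for microglia. After each cell was thinned to 1000 UMIs, 38.1% (34.1 to 42.4) of vehicle sham microglia, 13.2% (11.7 to 14.8) of those at 7 dpi and 17.7% (16.4 to 19.1) of those at 28 dpi carried a Smad7 UMI, and 64.4%, 37.6% and 45.5% carried a Tgfbr1 UMI. Unthinned, the shares were 66.8%, 31.1% and 28.1% for Smad7 and 87.7%, 67.6% and 65.3% for Tgfbr1. The thinning left out 126, 170 and 906 cells with fewer UMIs. Thinned endothelial cells, the type compared, carried a Tgfbr1 UMI in 3.95%, 6.02% and 9.90%.

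Immediate early genes, which were examined after the Smad7 values were seen, were also lower in injured vehicle libraries than in sham. In microglia at 7 dpi against sham, Fos was at -1.97, Egr1 at -1.89, Ier2 at -1.98, Fosb at -1.61 and Socs3 at -2.42, while Atf3 was at -0.35. At 28 dpi Fos was at -2.66, Egr1 at -2.37 and Socs3 at -3.10. Fos, Egr1 and Socs3 were thus further below sham at 28 than at 7 dpi. The 28 dpi values of Fosb, Ier2 and Atf3 are not reported here. In MDMs at 7 dpi Fos was at -1.41, Egr1 at -2.39 and Socs3 at -3.56. These genes respond within minutes to stress, including that of dissociation, and their part in the Smad7 values was not tested.

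Other genes of the pathway were read from 6 lists by role, of which 43 genes were in the count table. In microglia at 7 dpi, Nrros, which holds latent TGF-beta on the microglial surface, went from 107 to 45.2 CPM (-1.24), the only one of 6 counted storage and activation genes past 2-fold, in a list with a median of -0.66. The integrin subunit Itgav stood at -0.41, and Ltbp1 was at 1 and 2 UMIs. All 3 counted other Smads were at least 2-fold lower (Smad5 -1.07, Smad1 -1.03, Smad4 -1.02), as was 1 of 2 coreceptors and related receptors (Eng -1.42) and 1 of 7 inhibitors (Skil -1.10). These counts stand beside 24.0% of all genes at least 2-fold lower, and the medians were -1.03 for the other Smads, -0.78 for the coreceptors and -0.34 for the inhibitors beside -0.57 over all genes. On the TMM scale none of these 6 genes stayed past 2-fold, with values from -0.84 to -0.44.

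Genes that respond to TGF-beta did not move one way in microglia at 7 dpi. Among the targets, Fn1, fibronectin, was at 4.43, from 8.11 to 174 CPM, and Bhlhe40, a transcription factor, was at 3.74 (1.84 to 6.81). Junb, also an immediate early gene, was at -2.10. Of the 6 microglial genes that need TGF-beta to be expressed, 5 were at least 2-fold lower (24.0% of all genes), with a list median of -1.77 against -0.57 over all genes: P2ry12 -2.78, Siglech -2.13, Tmem119 -1.82, Gpr34 -1.71 and Sall1 -1.58. All 5 stayed past 2-fold on the TMM scale, with Sall1 the closest at -1.01. The 6 genes of this list are also the markers by which the microglia cluster was named. The paper already reports P2ry12 as decreased in microglia after SCI. The list is therefore not a readout of TGF-beta alone, and what lowered its genes was not tested. The same 5 genes were at least 2-fold lower at 28 dpi (14.4% of all genes), with a list median of -1.43 against -0.46 over all genes, and P2ry12 (-1.78), Tmem119 (-1.17) and Siglech (-1.02) stayed past 2-fold on the TMM scale. At that time Bambi, a decoy receptor, was at 1.85, from 6.68 to 24.1 CPM.

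**Figure D3:**
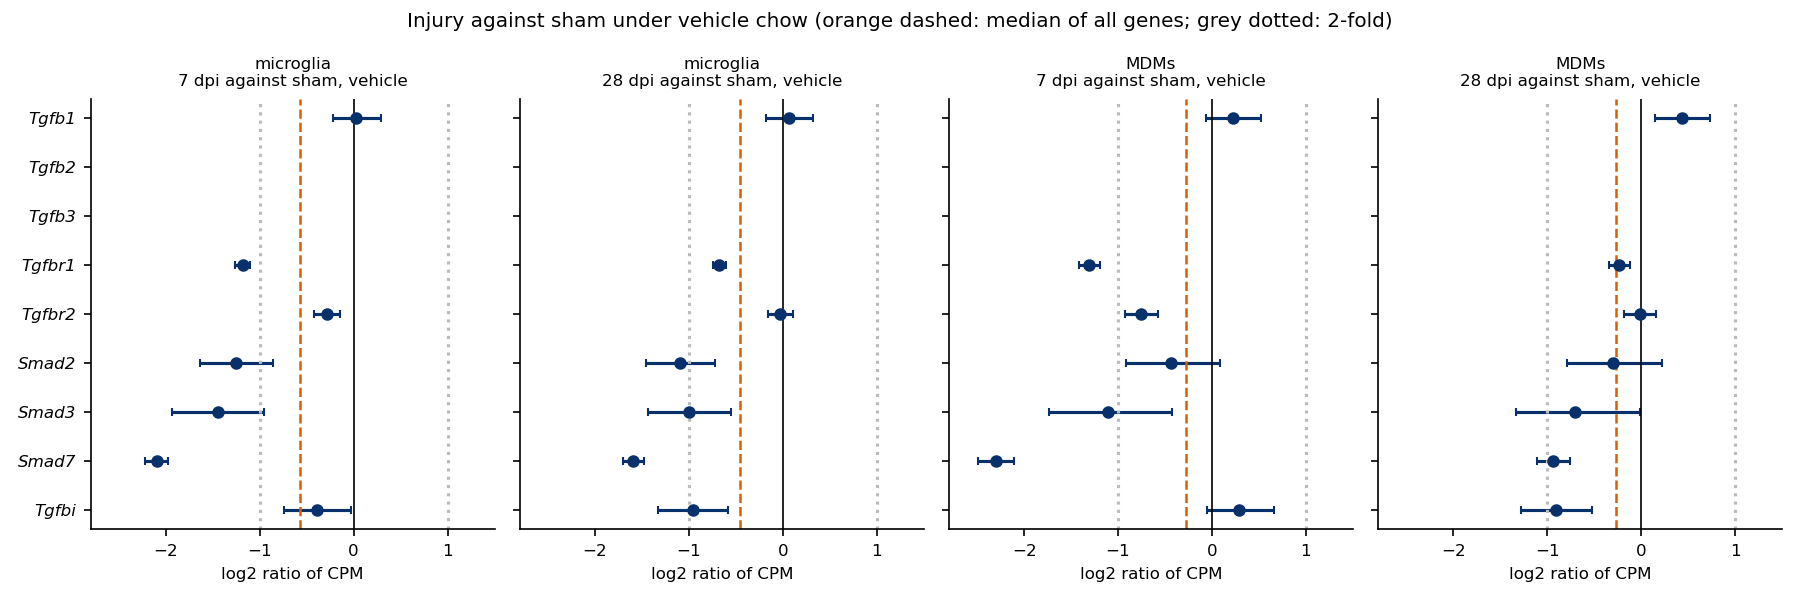
Log2 ratio of CPM, injury against sham on vehicle, for the members in microglia and MDMs, with exact conditional binomial 95% intervals as bars. Tgfb2 and Tgfb3 had too few UMIs to be plotted. Dotted lines mark 2-fold and the orange dashed line the median of all genes, which is -0.57 for microglia at 7 dpi. Smad7 lies furthest below that median at 7 dpi in microglia (-2.10) and MDMs (-2.30), while Tgfb1 lies above it in all 4 panels (0.03 in microglia at 7 dpi).

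In MDMs the 7 dpi library was the low one. From sham to 7 dpi on vehicle, Smad7 went from 218 to 44.1 CPM (-2.30, -2.49 to -2.11), Tgfbr1 from 507 to 205 CPM (-1.30, -1.42 to -1.19), Smad3 from 16.9 to 7.85 CPM (-1.11, -1.73 to -0.42) and Tgfbr2 from 220.0 to 130.5 CPM (-0.75, -0.92 to -0.58). The first 3 made 3 of 7 members at least 2-fold lower, against 13.0% of all genes, and 0 members were at least 2-fold higher, against 4.85%. The median gene was at -0.27, and on the TMM scale Smad7 (-2.02) and Tgfbr1 (-1.02) stayed past 2-fold while Smad3 (-0.83) did not.

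From 7 to 28 dpi the receptors and Smad7 were higher again. Tgfbr1 went from 205 to 432 CPM (1.07, 1.02 to 1.13), Smad7 from 44.1 to 114 CPM (1.37, 1.25 to 1.49) and Tgfbr2 from 130.5 to 219 CPM (0.74, 0.67 to 0.82). Tgfbi went the other way, from 61.3 to 26.7 CPM (-1.20, -1.37 to -1.03). So 2 of 7 members were at least 2-fold higher (4.12% of all genes) and 1 was at least 2-fold lower (4.31%), with the median of all genes at 0.02. At 28 dpi against sham, 0 of 7 members were at least 2-fold lower (7.59%) and 0 at least 2-fold higher (1.93%), with Smad7 at -0.93 (-1.11 to -0.75), Tgfbr1 at -0.23 and a median gene at -0.26. On PLX5622 the log2 ratio of 28 to 7 dpi was 0.42 (0.20 to 0.63) for Tgfbr1, 0.59 (0.30 to 0.89) for Tgfbr2, 0.61 (0.16 to 1.07) for Smad7 and -1.07 (-1.42 to -0.72) for Tgfbi.

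The 185 sham MDMs carried microglial genes, which moved with these comparisons. P2ry12 was 412 CPM in sham MDMs and 41.8 CPM at 7 dpi (-3.30), Siglech 319 and 21.5 CPM (-3.89) and Sall1 98.0 and 11.4 CPM (-3.11). All 6 microglial genes that need TGF-beta were at least 2-fold lower at 7 dpi than in sham (13.0% of all genes), and 3 of 6 were at least 2-fold higher at 28 than at 7 dpi, beside 4.12% of all genes (Siglech 1.83, Sall1 1.30, Gpr34 1.18). The part of these genes' cells in the Tgfbr1 and Smad7 values was not tested.

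Some activators of latent TGF-beta also differed in MDMs. Thbs1, thrombospondin-1, a protein that frees the ligand, went from 7.76 to 70.4 CPM at 7 dpi (3.18, 2.34 to 4.19) and down to 5.20 CPM at 28 dpi (-3.76, -4.12 to -3.42). The integrin subunit Itgav was at 1.09 at 7 dpi, making 2 of 7 counted storage and activation genes at least 2-fold higher, beside 4.85% of all genes, with a list median of 0.55 against -0.27 over all genes. From 7 to 28 dpi, 3 of 7 were at least 2-fold lower, beside 4.31% of all genes, with a list median of -0.87 against 0.02: Thbs1, the latent binding protein Ltbp3 (-1.98) and the protease Mmp14 (-1.13). Bambi was the 1 inhibitor of 7 that was at least 2-fold higher over the same interval (1.86), beside 4.12% of all genes.

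In endothelial cells Tgfb2 was lower in the injured libraries. It went from 162 CPM in vehicle sham to 63.5 CPM at 7 dpi (-1.35, -1.86 to -0.82) and 51.8 CPM at 28 dpi (-1.64, -2.25 to -1.04). Thinned to 1000 UMIs per cell, the 7 dpi value was -0.79, under 2-fold. On PLX5622 the values against sham were -0.61 (-1.17 to -0.06) and -0.68 (-1.51 to 0.08). Tgfbr2 was close to level, at 0.05 (-0.27 to 0.39) and -0.01 (-0.35 to 0.34), and Smad7 was at -0.82 (-1.38 to -0.23) and -0.13 (-0.69 to 0.46). Of 5 members with enough UMIs, 1 was at least 2-fold lower at 7 dpi (5.11% of all genes) and 1 at 28 dpi (3.80%), with a median gene of -0.15 at both times.

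The 1 member that was at least 2-fold higher in endothelial cells at each time (6.49% and 5.32% of all genes) was Tgfbr1, at 32.4, 102 and 155 CPM in vehicle sham, 7 dpi and 28 dpi (1.66, 0.74 to 2.75, and 2.26, 1.34 to 3.36). Myeloid RNA moved with it. A list of 12 myeloid genes, among them Tyrobp, C1qa and Csf1r, summed in endothelial cells to 2.80%, 16.8% and 22.3% of its level in microglia of the same library, while Tgfbr1 was 3.17%, 22.7% and 24.3% of its microglial level. None of the 12 genes was at 0 in these 3 libraries. In endothelial cells with fewer than 3 UMIs of the list, Tgfbr1 was at 26.9, 19.9 and 46.6 CPM (6, 8 and 14 UMIs in 72, 150 and 200 cells), log2 ratios of -0.44 and 0.79. Tgfb2 in those cells was at -1.53 and -1.50, as low as in all endothelial cells. On PLX5622, where the list summed to 0.198%, 3.10% and 2.38%, endothelial Tgfbr1 was 34.0, 47.8 and 51.6 CPM.

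The same held in other clusters. In astrocytes of vehicle-fed mice Tgfbr1 went from 41.0 to 163 and 287 CPM and Tgfbr2 from 7.70 to 109 and 126 CPM, while the myeloid list went from 3.30% to 40.1% and 40.3% of its microglial level. On PLX5622, with the list at 0.187%, 3.56% and 1.53%, Tgfbr1 was 22.2, 38.1 and 26.4 CPM and Tgfbr2 3.41, 19.0 and 6.60 CPM. In T cells Tgfbr1 went from 43.2 to 159 and 189 CPM on vehicle with the list at 8.07%, 37.3% and 34.4%, and stood at 0, 20.5 and 38.2 CPM on PLX5622. Only 12 of 67 T cells of the vehicle sham library had fewer than 3 UMIs of the list. How much of it is the RNA of that cluster itself was not tested. In the erythroid cluster, where Tgfbr1 stood at 268 CPM in vehicle sham and 459.9 CPM at 28 dpi on vehicle, the list was at 25.5% and 68.6%. Smad7 of T cells stood at 184, 91.9 and 155 CPM on vehicle and 265, 123 and 137 CPM on PLX5622.

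**Figure D4:**
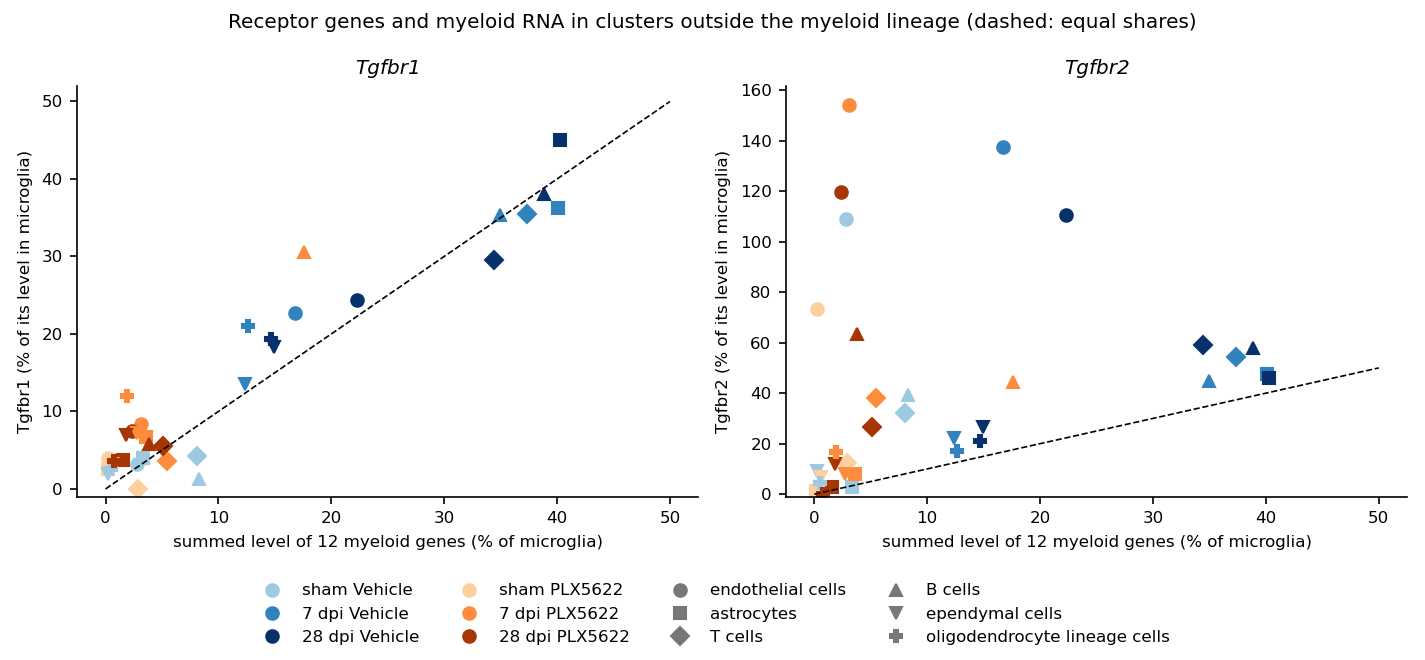
Tgfbr1 and Tgfbr2 of non-myeloid clusters against the summed level of 12 myeloid genes, each as percent of the microglia of the same library, on linear axes. Each point is 1 cluster (symbol) in 1 library, in blue shades for vehicle and orange shades for PLX5622, and the dashed line marks equal percentages. Tgfbr1 lies near that line in injured vehicle libraries (22.7% against 16.8% in endothelial cells at 7 dpi), whereas endothelial Tgfbr2 lies far above it, at 73.3% to 154%.

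Other pathway genes of endothelial cells included both directions. Smad1, which carries signals from Acvrl1, was higher than sham by 1.75 on the log2 scale at 7 dpi (1.05 to 2.56) and by 1.05 at 28 dpi (0.30 to 1.88), past 2-fold as 1 of 3 counted other Smads, beside 6.49% and 5.32% of all genes. Acvrl1 went from 505 to 267 and 324 CPM (-0.92 and -0.64), Tgfbr3 was at -0.71 and -0.87, and Eng at -0.34 and -0.35, none of them past 2-fold. The latent binding protein Ltbp4 was at -0.54 and -0.10. Klf10, an early TGF-beta target, was at -1.07 and -1.01, but at -0.92 and -0.86 with TMM.

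Tgfb1 was higher per UMI in the microglia and MDMs left in the PLX5622 libraries. In microglia Tgfb1 was higher than on vehicle by 1.59 on the log2 scale in sham (1.01 to 2.13), by 0.74 at 7 dpi (0.30 to 1.15) and by 0.65 at 28 dpi (0.23 to 1.04). In MDMs it was higher by 0.92 at 7 dpi (0.74 to 1.10) and by 0.39 at 28 dpi (0.15 to 0.62), and in the Ccr2/Retnla cluster by 0.75 (0.25 to 1.22) at 7 dpi but not at 28 dpi (-0.29, -1.07 to 0.45). With each cell thinned to 1000 UMIs the MDM value at 7 dpi was 0.44 and the microglial value at 7 dpi was 1.05. Medians of all genes in these comparisons lay between -0.12 and 0.01. Other clusters gave no firm direction. Tgfb1 of sham endothelial cells was 86.7 CPM on PLX5622 and 38.8 CPM on vehicle, a log2 ratio that thinning turned to -0.84. At 28 dpi Tgfb1 was 113 CPM on PLX5622 against 83.3 CPM on vehicle in B cells. In neutrophils it was 12.8 against 44.1 CPM, where the 32 PLX5622 cells held too few Tgfb1 UMIs to give a direction.

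By CPM, no member of microglia passed 2-fold between the diets after injury. At 7 dpi 0 of 7 were at least 2-fold higher (3.54% of all genes) and 0 at least 2-fold lower (6.70%), and at 28 dpi the counts were also 0 and 0 (2.90% and 7.70%). Tgfbr1 differed by 0.34 (0.13 to 0.54) and 0.12 (-0.05 to 0.29), and Smad7 by 0.13 (-0.28 to 0.52) and -0.05 (-0.39 to 0.27). With each cell thinned to 1000 UMIs, the 7 dpi values of Tgfb1 and Smad7 were past 2-fold, at 1.05 and -1.43, and 3 of 54 PLX5622 cells (5.56%) carried a Smad7 UMI against 13.2% on vehicle. Among the other pathway genes of these microglia, Fn1 (-2.09), Bambi (-2.37, -5.43 to -0.50, from 2 UMIs on PLX5622) and Acvrl1 (-1.04) were lower at 28 dpi.

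In MDMs the member past 2-fold was Tgfbi. It was 61.3 CPM on vehicle and 153 CPM on PLX5622 at 7 dpi (1.32, 1.12 to 1.51), and 26.7 and 73.0 CPM at 28 dpi (1.45, 1.11 to 1.78). At 28 dpi the value was 0.95 when each cell was thinned to 1000 UMIs. So 1 of 7 members was at least 2-fold higher at 7 dpi (2.60% of all genes) and 1 at 28 dpi (3.27%), and 0 were at least 2-fold lower (3.42% and 3.85%). The Ccr2/Retnla cluster showed Tgfbi at 405 and 1023 CPM at 7 dpi (1.34, 1.14 to 1.54) but at 242 and 250.3 CPM at 28 dpi (0.05, -0.36 to 0.45). Its PLX5622 libraries held 29 and 63 of these cells.

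The receptors did not share that direction. At 28 dpi MDMs of PLX5622-fed mice had lower Tgfbr1 (269 against 432 CPM; -0.68, -0.85 to -0.53), Smad7 (68.4 against 114 CPM; -0.74, -1.07 to -0.43) and Tgfbr2 (162 against 219 CPM; -0.43, -0.64 to -0.23), each under 2-fold. At 7 dpi Tgfbr1 (-0.03, -0.19 to 0.13) and Smad7 (0.02, -0.34 to 0.35) were level with vehicle within their intervals. Tgfbr2 of these MDMs was 108 CPM on PLX5622 at 7 dpi, lower than on vehicle, and at -1.06 with each cell thinned to 1000 UMIs. In the Ccr2/Retnla cluster Tgfbr2 was lower, at -0.98 (-1.92 to -0.18) and -1.31 (-2.18 to -0.52), although with cells thinned to 1000 UMIs the 28 dpi value was 0.29. That thinned value rests on at most 63 PLX5622 cells of 1000 UMIs each, and so on few Tgfbr2 UMIs.

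Thbs1 was the activator that differed most between the diets in MDMs at 7 dpi, with 386 CPM on PLX5622 and 70.4 CPM on vehicle (2.45, 2.32 to 2.59), the only one of 7 counted storage and activation genes past 2-fold, beside 2.60% of all genes. Bambi (1.24) and Smad6 (1.24, an inhibitory Smad) were also higher, and Pmepa1 (-1.04), a target that feeds back on the pathway, Tmem119 (-1.09) and Siglech (-1.06) were lower. At 28 dpi Thbs1 was at 10.9 and 5.20 CPM (1.07, 0.13 to 1.91) and Eng at -1.51 (-3.15 to -0.25).

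**Figure D5:**
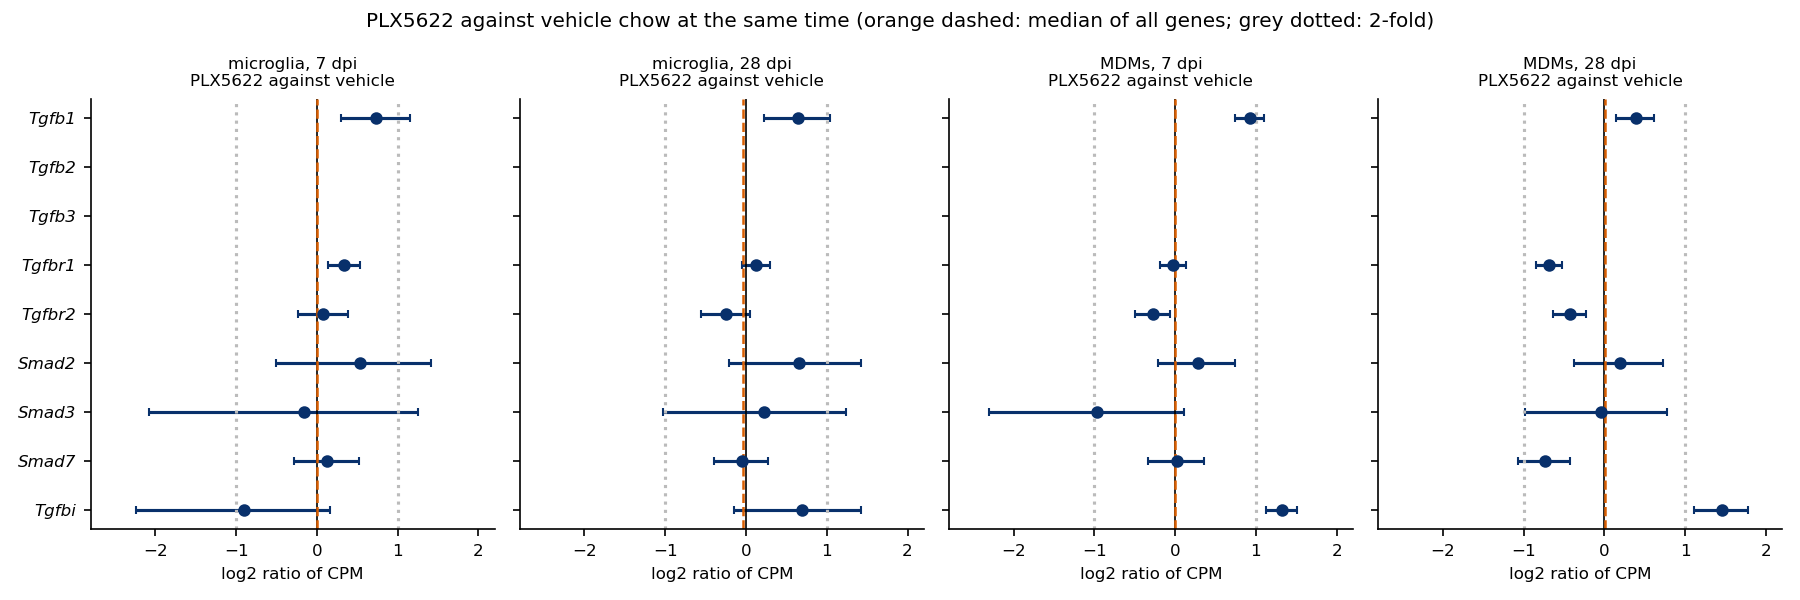
Log2 ratio of CPM, PLX5622 against vehicle at the same condition, for the members in microglia and MDMs at 7 and 28 dpi, with exact conditional binomial 95% intervals as bars and without Tgfb2 and Tgfb3, which had too few UMIs. Dotted lines mark 2-fold and the orange dashed line the median of all genes. Tgfb1 lies above 0 in microglia (0.74 at 7 dpi) and MDMs (0.92 at 7 dpi), and Tgfbi lies past 2-fold in MDMs at both times.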

How the data were processed

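Single-cell RNA-seq of spinal cord cells (10x Chromium 3′ v3) was made in 6 libraries, 1 per condition, each from 3 to 4 pooled mice. Per the labels, the authors ran Cell Ranger and then Seurat, and the deposited values are counts of UMIs per gene and cell, not normalized, with the authors' cluster number for each of 21016 cells. Bulk RNA-seq of the study was not analysed here. The table holds cells with up to 8982 genes, and 716 cells exceed the 3000-gene limit the study states.

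UMIs were summed per cluster and library and divided by their total (CPM), with exact Poisson 95% intervals. Pairs of libraries were compared by the log2 ratio of CPM with an exact conditional binomial 95% interval. Counts of members use a 2-fold limit, genes whose UMIs in the pair of libraries summed to 50 or more, and clusters of at least 20 cells. A gene at 0 was set to a floor of 3 counts. With 1 library per condition no p-value was computed, and replicate numbers were not used to pair libraries. Intervals cover counting error only. The scripts were tested on simulated data.

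The 9 members and all lists were chosen with earlier results of these data known. All 9 members are named; of other pathway genes, those past 2-fold in a comparison described (at most 6 each) and a few fixed by role; of alike genes, the closest of 9450 candidates. Some genes that these rules would name are not reported here. Immediate early genes and cells of the Ccr2/Retnla cluster with a Tgfb2 UMI were examined after values were seen. Ltbp2, Itgb6, Trac, Trbc2 and Hbb-bt had no row in the count table used, and Ccn2 was read from its older symbol Ctgf. Promoters for 6 of 9 members came from RefSeq (GRCm38.p6). Alternatives were edgeR and DESeq2 scaling, totals without 83 ribosomal protein genes, cells weighted alike, thinned to 1000 UMIs or with at least 500 genes, cells without 1256 doublets called by Scrublet at 0.8% per 1000 barcodes (doublets were otherwise left in), cells with fewer than 3 UMIs of the myeloid list, a 1.5-fold limit, and minimums of 20 or 100 UMIs. DESeq2 1.42.0 and edgeR 4.0.16 ran under R 4.3.3. Scrublet ran through scanpy 1.11.5, and the intervals came from scipy 1.17.1 under Python 3.11.15 with pandas 2.3.3 and numpy 2.4.6.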

Additional observations from a re-analysis of the deposited data

Results flagged for a closer look

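In MDMs, Tgfb1 differed between 7 and 28 dpi in opposite directions on the 2 diets. Its log2 ratio of 28 to 7 dpi was 0.21 (95% interval 0.11 to 0.31) on vehicle and -0.33 (-0.61 to -0.05) on PLX5622, with 87.3 and 101 CPM on vehicle and 165 and 132 CPM on PLX5622. Each condition was 1 library, the intervals cover counting error only, and the difference between the diets was not tested. With each cell thinned to 1000 UMIs the PLX5622 value was 0.064, so the directions were then no longer opposite.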

How the results depend on the processing

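Of 212 log2 ratios of members, 57 were at least 2-fold, and 33 of these stayed past 2-fold under every alternative computed. No paired analysis was possible because each single-cell condition had 1 library and no result comes from a test. Counts below are members at least 2-fold apart, and the cause of a move was not tested where the setting itself does not show it. No share over all genes was computed under the alternatives. Their counts therefore show only how the number of members moved. With TMM or DESeq2 factors, 1 microglial member was lower than sham at 7 dpi (4 by CPM) and 1 at 28 dpi (2 by CPM). Without ribosomal protein genes, the 28 dpi count was 1 and the lower count of MDMs on PLX5622 at 7 dpi was 1 (0). With cells weighted alike, 1 MDM member was lower at 28 dpi than sham (0), 0 endothelial members were higher at 7 dpi (1) and 1 microglial member was higher on PLX5622 at 7 dpi (0).

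Thinned to 1000 UMIs per cell, 2 microglial members were lower at 7 dpi (4), 1 MDM member was higher at 7 dpi (0), and in MDMs at 28 dpi against sham 1 was higher and 1 lower (0 and 0). The higher MDM member both times was Tgfbi, under 2-fold by CPM and at 3.64 and 2.27 when thinned. Endothelial counts were then 0 in both directions at 7 and 28 dpi (1 each), although the Tgfbr1 ratios were 1.14 and 1.46 and that of Tgfb2 at 28 dpi was -1.87, because fewer UMIs were left than the minimum of 50. Between the diets, thinning gave 1 higher and 1 lower in microglia at 7 dpi (0 and 0), 1 higher at 28 dpi (0), 2 lower in MDMs at 7 dpi (0) and 0 higher at 28 dpi (1). Thinned cells also turned Tgfb1 of endothelial cells, PLX5622 against vehicle sham, to -0.84, and Tgfbr2 of the Ccr2/Retnla cluster at 28 dpi on PLX5622 to 0.29. These values rest on at most 76 and 63 PLX5622 cells of 1000 UMIs each, and so on few UMIs of the gene.

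Without called doublets, endothelial cells had 0 higher members at 7 and at 28 dpi (1 each) and 2 lower at 7 dpi (1). With fewer than 3 myeloid UMIs the higher counts were also 0 and 0 and the lower count at 7 dpi was 2. In those cells Tgfbr1 reversed to -0.44 in endothelial cells at 7 dpi and -1.10 in astrocytes at 28 dpi against sham. The astrocyte value rests on 1 Tgfbr1 UMI at 28 dpi and 12 in sham. Between the diets Tgfbr1 of those cells reversed to 0.54 and 0.064 in endothelial cells at 7 and 28 dpi. At 28 dpi it reversed to 1.84 in astrocytes and 1.75 in T cells, from 1 UMI each on vehicle against 4 and 5 on PLX5622. The values that rest on 1 UMI give no direction. Without called doublets Tgfbr1 reversed to 0.077 in endothelial cells at 7 dpi.

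A 1.5-fold limit gave 5 lower in microglia at 28 dpi (2), 3 lower in MDMs at 28 dpi (0), 2 lower in endothelial cells at 7 dpi (1), and between the diets 1 higher and 1 lower in microglia at 7 dpi, 3 higher at 28 dpi, 2 higher and 1 lower in MDMs at 7 dpi and 2 lower at 28 dpi. In microglia at 28 dpi against sham the median of all genes was itself -0.46, so a lower limit also takes in more of the other genes. A minimum of 20 UMIs gave 3 lower endothelial members at 28 dpi (1) and 1 lower MDM member on PLX5622 at 28 dpi (0), and a minimum of 100 UMIs gave 0 lower endothelial members at 28 dpi. Of the ratios under 2-fold, 55 changed sign under some setting. PLX5622 microglia, with 29 to 126 cells, and other clusters near the minimum of 20 cells give wide intervals.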

Other observations

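Tgfb2 in the Ccr2/Retnla cluster came from a small group of cells, a pattern looked for after its values were seen. At 28 dpi on vehicle, the 45 UMIs lay in 25 of 284 cells (8.80%), with at most 4 in a cell, and at 7 dpi 26 UMIs lay in 17 of 602 cells (2.82%). The 25 cells at 28 dpi had a median of 2668 UMIs against 1787 in the other 259. They held 685 CPM of Ltbp1, a latent TGF-beta binding protein, against 57.9 CPM in the others. Thbs1 stood at 1735 against 208 CPM and Fn1, fibronectin, at 8689 against 1188 CPM. Cldn5 and Aqp4, markers of the endothelial cells and astrocytes that express Tgfb2, had 0 UMIs in these 25 cells and 10 and 2 UMIs in the other 259, too few to compare. At 7 dpi the 17 cells held 550.5 CPM of Ltbp1 against 16.7 CPM and 6459 CPM of Fn1 against 1256 CPM. Cldn5 was then at 24.5 CPM (2 UMIs) against 10.5 CPM in the other 585 cells and Aqp4 at 12.2 CPM (1 UMI) against 6.68 CPM, again too few UMIs to compare. The part of RNA from those cell types was not tested. On PLX5622 no cell of the cluster had a Tgfb2 or Ltbp1 UMI at 7 dpi (29 cells) or 28 dpi (63 cells), while Thbs1 was at 434 and 19.3 CPM there. A count of 0 in so few cells does not show that the gene is absent.

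Astrocytes of the PLX5622 library at 28 dpi held both Tgfb2 (119 CPM, 18 UMIs, against 26.6 CPM and 11 UMIs on vehicle) and Tgfb3 (39.6 CPM, 6 UMIs, against 2.41 CPM and 1 UMI). The log2 ratios were 2.16 (1.00 to 3.39) for Tgfb2 and 4.03 (0.99 to 9.56) for Tgfb3. Against the PLX5622 sham library they were 1.26 (0.33 to 2.16) and 4.54 (1.49 to 10.1). Both rest on few UMIs in 1 library of 107 cells. The Tgfb2 values of the diets lay closer in astrocytes with fewer than 3 UMIs of the myeloid list. At 28 dpi they were 124 CPM (18 UMIs) on PLX5622 and 53.8 CPM (7 UMIs) on vehicle.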
